A study of Mus musculus with 21 samples.

Results

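RNA sequencing counts of 9 mouse genes were followed through 7 sorted populations of bone marrow myeloid progenitors. The genes were the GATA factors Gata1 and Gata2, and genes grouped with them as complex partners, Zfpm1, Tal1, Lmo2, Ldb1, Lyl1, Nfe2 and Cbfa2t3. They were taken by name as this group, with earlier results of these data known, and are not all subunits of 1 complex. All 9 of 9 were found among the 47643 genes counted and passed the filter on low counts, which left 14801 genes for testing. The populations were CD62L-low, CD62L-high, CD62L-neg and bulk granulocyte-monocyte progenitors (GMPs), and CD62L-high, CD62L-low and bulk common myeloid progenitors (CMPs), with 3 libraries each, 21 in all. All came from bone marrow of C57/B6 mice with no genetic change or treatment. CMPs were sorted as lineage-negative, SCA-1-negative, c-KIT-positive, CD34-positive cells with little Fc gamma receptor (CD16/32), and GMPs as the like cells with high CD16/32. CD62L is a surface protein by which both types were divided further. According to the study's methods the CD62L-neg GMPs were the cells with the least CD62L among all GMPs, while the CD62L-low GMPs (CD62L-int in the study's text) and the CD62L-high GMPs were the lower and upper ends of the CD62L-positive main body of GMPs, and the CD62L-low CMPs are the CD62L-neg CMPs of that text. Each fraction is thus a window cut from a continuous distribution of surface CD62L, and each bulk population contains the fractions sorted from it. The labels do not say whether the 3 libraries of a population came from separate mice, so p-values measure the spread between these libraries, which may be technical.

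GATA1 and GATA2 are zinc finger proteins that bind the letters GATA in DNA. GATA2 acts in stem cells, early progenitors and mast cells, and GATA1 in erythroid cells, megakaryocytes, eosinophils and mast cells. In erythroid precursors GATA1 displaces GATA2 from shared sites, a change of occupancy for which the GATA partner FOG1, encoded by Zfpm1, is needed. TAL1 (also SCL) and its paralog LYL1 are basic helix-loop-helix factors that pair with E proteins and bind E-boxes. The LIM-only protein LMO2 and the LIM-domain binding protein LDB1 bridge such a pair to a GATA factor, and ETO2, encoded by Cbfa2t3, is a corepressor held in the same complex. NFE2 is the large subunit of a basic leucine zipper factor that works with small MAF proteins at globin and platelet genes.

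The libraries held 6145834 to 15263573 counts. The bulk CMP and CD62L-low CMP libraries were the shallowest, at 6145834 to 7509818 counts, so depth differed along with the CD62L sort of the CMPs. Levels are given as CPM, counts put on a common library size with the scaling of edgeR (TMM). 3 counts, the limit that a count of 0 allows, correspond to 0.197 to 0.488 CPM of a library's total before that scaling, and this covers counting error only. In bulk CMP replicate 2, 61.03% of the counts lay in 3 gene models (Gm23935, Gm26917 and Gm42418), and in CD62L-high GMP replicate 1 41.09% did, against 22.41% to 31.72% in the others. Fcgr3, which encodes CD16, was at 131 to 190 CPM in the 12 GMP libraries and 6.54 to 15.7 CPM in the 9 CMP libraries. Cd34 RNA was at 83.2 ± 48.2 CPM in CD62L-low CMPs, below the 149 ± 8.73 CPM or more of the other 6 populations (SD, n = 3). The sort of both types was on CD34 protein at the surface, not on its RNA. Markers of B, T and NK cells were at or near 0, with at most 0.605 CPM summed over 7 genes in any library.

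RefSeq promoter windows on the mouse build GRCm38.p6 were at hand for 7 of the 9 genes, 12 windows in all because several genes have more than 1 start site. Lmo2 and Nfe2 had none in the table. The 250 bases before each start site were searched on both strands for 4 spellings of the GATA motif (AGATAA or AGATAG, and, with another base in front, TGATAA or TGATAG). 3 of the 12 windows held a match, against 26.5% of the 32851 windows of the same length in the table. They belong to Tal1 (chr4:115056176-115056425, plus strand), the third window of Ldb1 (chr19:46037071-46037320, minus strand) and the first of Cbfa2t3 (chr8:122699110-122699359, minus strand). They are printed 5′ to 3′ in the direction of the gene, ending at the base before the start site, with the GATA matches in capitals, below the windows of Gata1 (chrX:7967911-7968160, minus strand), the first of Gata2 (chr6:88193641-88193890, plus strand) and Zfpm1 (chr8:122281891-122282140, plus strand), the 3 genes with the widest range of expression, which held none.
Gata1: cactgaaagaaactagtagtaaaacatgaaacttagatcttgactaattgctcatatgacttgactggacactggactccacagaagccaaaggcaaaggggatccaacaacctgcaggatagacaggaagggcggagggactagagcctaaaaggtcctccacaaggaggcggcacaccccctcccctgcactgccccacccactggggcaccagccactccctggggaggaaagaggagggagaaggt
Gata2: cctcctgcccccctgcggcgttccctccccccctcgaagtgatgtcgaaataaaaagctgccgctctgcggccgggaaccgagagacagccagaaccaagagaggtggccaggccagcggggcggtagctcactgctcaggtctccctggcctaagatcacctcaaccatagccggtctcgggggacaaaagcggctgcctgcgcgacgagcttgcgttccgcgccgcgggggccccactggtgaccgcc
Zfpm1: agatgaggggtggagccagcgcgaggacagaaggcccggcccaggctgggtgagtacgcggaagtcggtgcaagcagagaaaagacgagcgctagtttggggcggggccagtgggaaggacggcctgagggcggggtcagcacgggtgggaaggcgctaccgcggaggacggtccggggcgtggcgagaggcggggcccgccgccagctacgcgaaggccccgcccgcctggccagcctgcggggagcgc
Tal1: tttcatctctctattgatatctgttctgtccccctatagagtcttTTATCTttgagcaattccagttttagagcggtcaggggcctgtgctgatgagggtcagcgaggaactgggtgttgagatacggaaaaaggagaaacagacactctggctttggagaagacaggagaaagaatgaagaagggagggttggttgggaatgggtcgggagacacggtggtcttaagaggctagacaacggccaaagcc
Ldb1: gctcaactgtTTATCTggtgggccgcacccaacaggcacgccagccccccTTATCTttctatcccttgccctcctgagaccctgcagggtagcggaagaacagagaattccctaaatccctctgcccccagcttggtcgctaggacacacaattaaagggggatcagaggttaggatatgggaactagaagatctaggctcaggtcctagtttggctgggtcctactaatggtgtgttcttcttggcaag
Cbfa2t3: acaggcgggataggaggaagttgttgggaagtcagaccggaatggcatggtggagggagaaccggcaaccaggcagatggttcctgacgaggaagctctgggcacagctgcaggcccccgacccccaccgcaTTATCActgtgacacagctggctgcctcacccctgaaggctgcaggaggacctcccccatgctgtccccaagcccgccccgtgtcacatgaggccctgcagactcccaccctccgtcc
The Tal1 match begins 205 bases before the start, the Ldb1 matches 240 and 200 bases before it, and the Cbfa2t3 match 118 bases before it. All 4 matches read GATA on the strand opposite to the one printed. E-boxes (CANNTG), which 66.2% of all windows held, were in 5 of the 12 windows, those of Gata1 and Lyl1, the third of Ldb1 and both of Cbfa2t3. The letters CCACCC, the core of the site of Krueppel-like factors, were found in 28.1% of all windows and in those of Gata1, Zfpm1, Lyl1, the first and second of Ldb1 and both of Cbfa2t3. A match is a run of letters and no evidence of binding.

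The 9 genes differed in how far their levels ranged over the populations. Gata1, Gata2 and Zfpm1 had their highest means in CD62L-low CMPs, at 65.2 ± 8.62, 601 ± 17.6 and 669 ± 109 CPM, and their lowest in CD62L-high GMPs, at 0, 4.41 ± 2.83 and 4.14 ± 0.608 CPM (SD, n = 3 each). Tal1 was likewise highest and lowest in these populations, over a smaller range, with 116 ± 5.61 CPM in CD62L-low CMPs and 11.5 ± 5.03 CPM in CD62L-high GMPs. Lmo2, Ldb1, Nfe2 and Cbfa2t3 were also highest in CD62L-low CMPs, but no population mean of theirs fell below 62.2 CPM. Lyl1 ran the other way, with its lowest mean, 32.5 ± 5.88 CPM, in CD62L-low CMPs and its highest, 89.7 ± 28.7 CPM, in CD62L-high GMPs. That highest mean rested on CD62L-high GMP replicate 1 at 121.6 CPM, the library with 41.09% of its counts in 3 gene models. The other CD62L-high GMP libraries, at 81.35 and 66.09 CPM, overlapped the CD62L-low GMPs (71.18 to 83.29 CPM). Over the 21 libraries the Pearson correlation of log2(CPM + 1) was 0.932 between Gata1 and Gata2, 0.959 between Zfpm1 and Tal1 and 0.894 between Zfpm1 and Cbfa2t3, and Lyl1 correlated negatively with each of the other 8 genes (-0.49 to -0.863). These are descriptions over libraries that share their population, so the points are not independent.

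**Figure D1:**
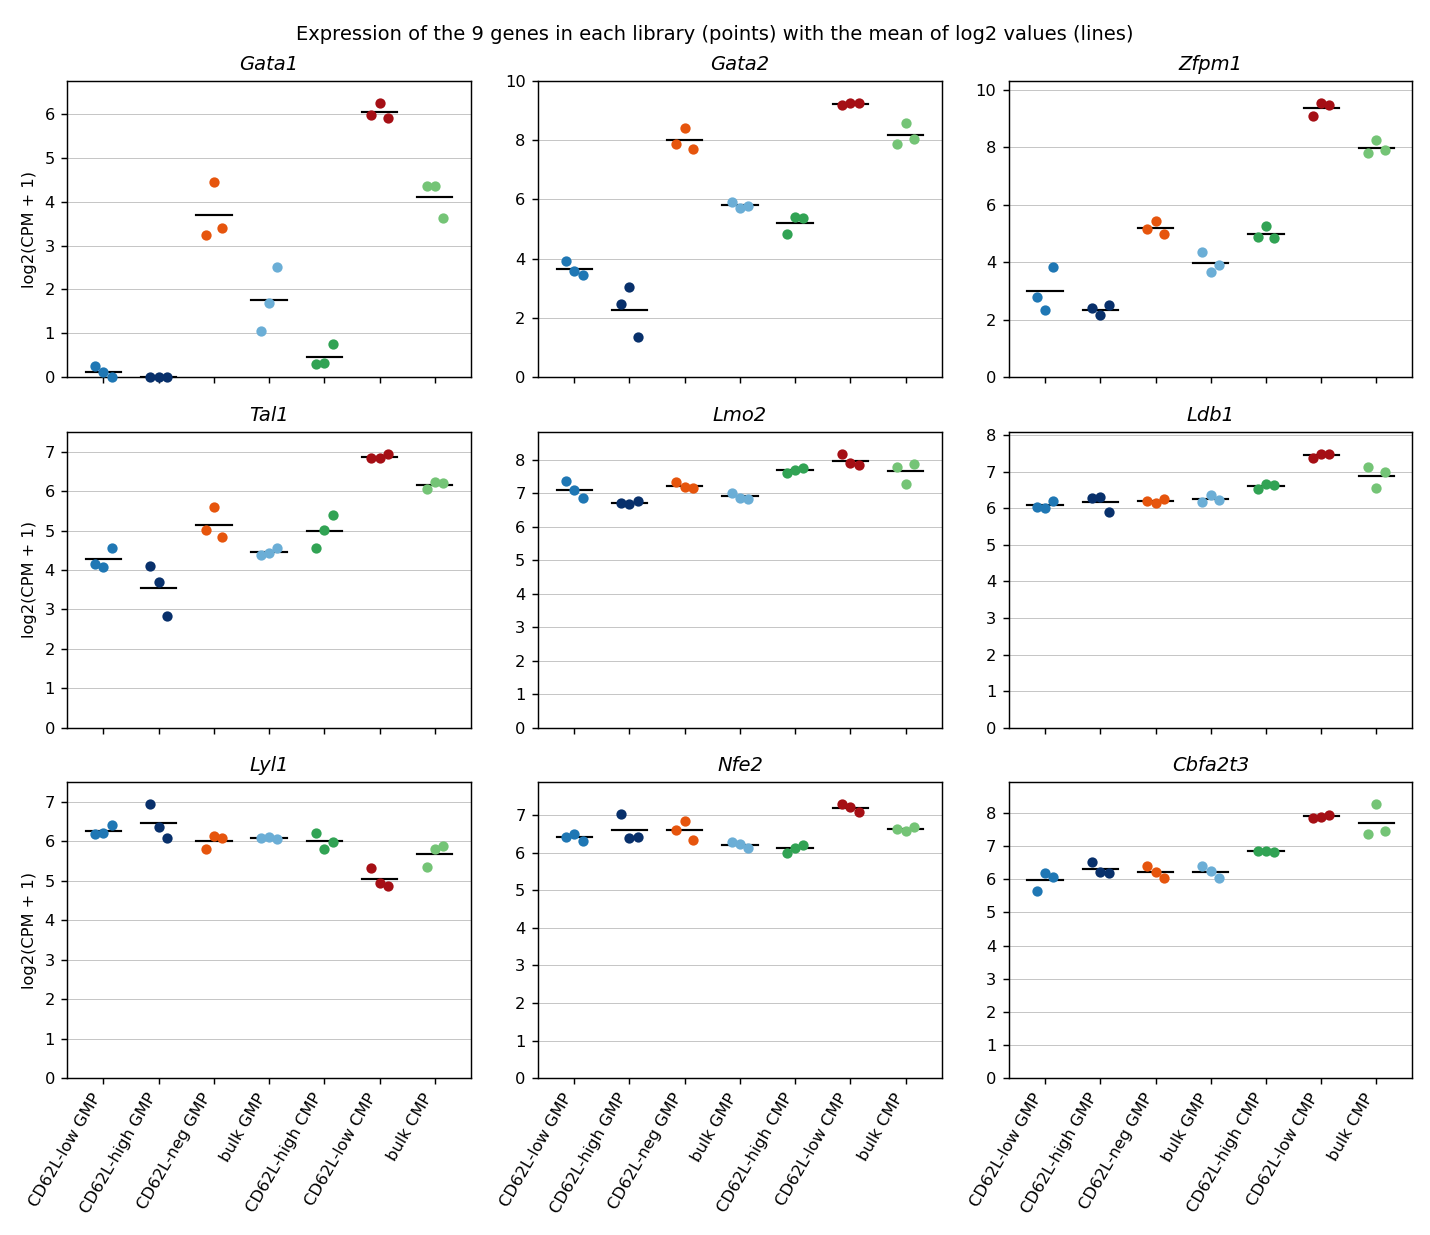
Expression of the 9 genes, each in its own panel, with log2(CPM + 1) on the vertical axis and the 7 populations along the horizontal axis; points are the 3 libraries and lines the mean of their log2 values. The CD62L-low CMPs stand highest for every gene but Lyl1, for which they stand lowest, and Gata1 was at 0 counts in all 3 CD62L-high GMP libraries.

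Neighbours in these orders often could not be told apart. Gata2 went down in the order CD62L-low CMPs, bulk CMPs, CD62L-neg GMPs, bulk GMPs, CD62L-high CMPs, CD62L-low GMPs and CD62L-high GMPs, and the only neighbours whose libraries overlapped were bulk CMPs (232 to 382 CPM) and CD62L-neg GMPs (208 to 343 CPM). Gata1 had the same order, with overlap between bulk CMPs and CD62L-neg GMPs and between CD62L-low and CD62L-high GMPs. For Zfpm1, bulk CMPs and CD62L-neg GMPs, which were next to each other in the order, did not overlap, at 222 to 304 CPM in bulk CMPs and 30.4 to 42.2 CPM in CD62L-neg GMPs. CD62L-neg GMPs overlapped CD62L-high CMPs instead, at 28.0 to 37.7 CPM. Lmo2, Ldb1, Lyl1, Nfe2 and Cbfa2t3 overlapped between most neighbours. For Ldb1, CD62L-low CMPs stood clear of bulk CMPs and CD62L-high CMPs of bulk GMPs, while the 4 GMP populations overlapped their neighbours in the order throughout. For Cbfa2t3, CD62L-low and bulk CMPs overlapped, and all 3 CMP populations stood clear of the GMPs.

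Levels of different genes were compared per kilobase of merged exon, since longer transcripts collect more counts. In CD62L-low CMPs Zfpm1 stood highest at 191 ± 31.1 CPM per kb, above Lmo2 at 117 ± 15.4 and Gata2 at 111 ± 3.25 CPM per kb, while Gata1 was at 26.8 ± 3.53 CPM per kb (SD, n = 3 each). Gata2 transcripts thus outnumbered Gata1 transcripts there, and Gata1 per Gata2 was 0.235, 0.273 and 0.214 in the 3 libraries. In CD62L-high GMPs Lyl1 at 49.8 ± 15.9 and Lmo2 at 48.3 ± 1.63 CPM per kb had the highest means and overlapped. Lyl1 stood above Lmo2 in replicate 1 only (67.55 against 48.33 CPM per kb), and was at 45.2 and 36.71 against 46.67 and 49.92 in the others. Gata2 was at 0.817 ± 0.524 and Zfpm1 at 1.18 ± 0.174 CPM per kb in CD62L-high GMPs. Population means of Lmo2 ranged over 48.3 to 117 CPM per kb and those of Nfe2 over 22.9 to 48.6 CPM per kb.

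The sort of CMPs by CD62L asks which genes differ between the fraction with most and the fraction with least CD62L on its surface. 6 of the 9 genes fell in CD62L-high CMPs, against 4.84% of all 14801 genes called lower, and none rose, against 5.62% of all genes called higher (edgeR quasi-likelihood test, adjusted p under 0.05 and more than 2-fold). Their median log2 fold change was -1.09, that of all genes 0.01. In bulk RNA fewer cells of a type and less RNA per cell cannot be told apart. Marker lists moved along with the sort. All 8 megakaryocyte markers fell, with sums of 14.7 to 21 CPM in CD62L-high CMPs, against 686 to 803 CPM in CD62L-low CMPs, as did 4 of 6 tested erythroid markers (0.632 to 7.24 CPM in CD62L-high CMPs, against 122 to 154 CPM in CD62L-low CMPs). Of 7 tested mast cell and basophil markers 6 fell and 1 rose (30.3 to 46.7 CPM in CD62L-high CMPs, against 154 to 199 CPM in CD62L-low CMPs). Of 5 stem cell markers 2 fell (53.1 to 83.9 CPM in CD62L-high CMPs, against 242 to 246 CPM in CD62L-low CMPs), while all 5 monocyte markers rose (1600 to 2000 CPM in CD62L-high CMPs, against 22.7 to 54.6 CPM in CD62L-low CMPs). All 4 tested neutrophil granule markers rose too (7250 to 8450 CPM in CD62L-high CMPs, against 878 to 1780 CPM in CD62L-low CMPs). Of 8 eosinophil markers 1 fell and none rose (3.28 to 10.2 CPM in CD62L-high CMPs, against 31.4 to 37.0 CPM in CD62L-low CMPs). The part of these cell types in the results on the 9 genes was not tested.

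The GATA factors and FOG1 fell furthest. Gata1 had 0.237, 0.254 and 0.680 CPM in CD62L-high CMPs (3, 4 and 11 counts), against 61.5, 75.1 and 59.1 CPM in CD62L-low CMPs, a log2 fold change of -7.31 ± 0.57 (SE, adjusted p = 3.87e-09, edgeR). Gata2 had 27.8, 41.9 and 40.7 CPM in CD62L-high CMPs, against 580, 610 and 612 CPM in CD62L-low CMPs (log2 fold change -4.03 ± 0.32, adjusted p = 1.46e-09). No library of either gene came near the other population, and bulk CMPs lay between the fractions for both, at 11.4 to 19.4 CPM for Gata1 and 232 to 382 CPM for Gata2. Zfpm1 had 28.1, 37.7 and 28.0 CPM in CD62L-high CMPs, against 544, 746 and 717 CPM in CD62L-low CMPs (log2 fold change -4.42 ± 0.30, adjusted p = 1.45e-10). Gata2 and Zfpm1 were still read with 351 to 659 counts in each CD62L-high CMP library, where Gata1 was down to 18 counts over the 3 libraries.

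The helix-loop-helix partners moved in opposite directions. Tal1 had 22.4, 31.2 and 41.4 CPM in CD62L-high CMPs, against 113, 114 and 123 CPM in CD62L-low CMPs (log2 fold change -1.87 ± 0.26, adjusted p = 7.71e-06). Lyl1 had 72.9, 55.2 and 62.5 CPM in CD62L-high CMPs, against 39.2, 29.9 and 28.4 CPM in CD62L-low CMPs. The log2 fold change of Lyl1 was 0.97 ± 0.20 with adjusted p = 0.000939, just under the 2-fold limit, so that it passed the test on p but was not called. Within a library, Lyl1 per Tal1 in CPM per kb was 7.90, 4.30 and 3.67 in CD62L-high CMPs, against 0.846, 0.640 and 0.562 in CD62L-low CMPs, so the ratio lay above 1 in every CD62L-high CMP library and below 1 in every CD62L-low CMP library (exact permutation p = 0.1, two-sided, the smallest that 3 against 3 libraries allow).

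The bridging proteins changed less. Ldb1 had 90.9, 99.9 and 99.2 CPM in CD62L-high CMPs, against 164, 178 and 180 CPM in CD62L-low CMPs, which passed on p but not on fold (log2 fold change -0.85 ± 0.15, adjusted p = 0.00016). Lmo2 had 194, 206 and 214 CPM in CD62L-high CMPs, against 291, 240 and 228 CPM in CD62L-low CMPs (log2 fold change -0.31 ± 0.16, adjusted p = 0.215), close to each other though not overlapping. Nfe2 fell to 62.6, 69.0 and 73.2 CPM in CD62L-high CMPs, against 155, 146 and 135 CPM in CD62L-low CMPs (log2 fold change -1.09 ± 0.16, adjusted p = 2.09e-05). Cbfa2t3 fell to 113, 115 and 111 CPM in CD62L-high CMPs, against 230, 235 and 245 CPM in CD62L-low CMPs (log2 fold change -1.06 ± 0.19, adjusted p = 0.000264). The fitted levels of Lmo2, Ldb1 and Cbfa2t3 were thus 1.24-fold to 2.09-fold lower in CD62L-high CMPs, while those of the GATA factors and of FOG1 were 16.3-fold to 159-fold lower.

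Bulk GMPs against bulk CMPs compare the progenitor types without the CD62L sort. 5 of the 9 genes fell in bulk GMPs (7.3% of all genes called lower) and none rose (4.19% of all genes called higher). Zfpm1 fell furthest, to 19.5, 11.7 and 14.1 CPM in bulk GMPs, against 222, 304 and 242 CPM in bulk CMPs (log2 fold change -4.08 ± 0.30, adjusted p = 1.64e-09). Gata2 was at 60.1, 50.9 and 54.2 CPM in bulk GMPs, against 232, 382 and 265 CPM in bulk CMPs (log2 fold change -2.41 ± 0.29, adjusted p = 2.66e-06). The fitted difference was thus larger for Zfpm1 than for Gata2, and Zfpm1 per Gata2 in CPM per kb averaged 0.417 ± 0.0749 in bulk GMPs and 1.37 ± 0.130 in bulk CMPs (SD, n = 3 each, exact permutation p = 0.1). Gata1, at 1.06 to 4.74 CPM in bulk GMPs and 11.4 to 19.4 CPM in bulk CMPs, Tal1 (log2 fold change -1.74 ± 0.26) and Cbfa2t3 (-1.53 ± 0.20) also fell. Lmo2 and Ldb1 passed on p but not on fold, and Lyl1 (adjusted p = 0.144) and Nfe2 (adjusted p = 0.0716) did not pass. Bulk CMP replicate 2, the library with 61.03% of its counts in 3 gene models, stood apart for Lmo2, Ldb1 and Cbfa2t3, at 154, 92.7 and 306 CPM against 221 to 236, 126 to 140 and 164 to 173 CPM in the other bulk CMP libraries. It was also the highest for Gata2, at 382 CPM against 232 and 265 CPM, and for Zfpm1, at 304 CPM against 222 and 242 CPM. Without that library 5 of 9 genes were still called lower, Gata2 and Zfpm1 among them.

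CD62L-neg GMPs, the thin lower tail of the GMP gate, held more GATA factor RNA than other GMPs. 3 of the 9 genes rose against bulk GMPs (1.89% of all genes called higher) and none fell (2.18% of all genes called lower). Gata1 had 8.48, 20.7 and 9.62 CPM in CD62L-neg GMPs, against 1.06, 2.24 and 4.74 CPM in bulk GMPs (log2 fold change 2.27 ± 0.44, adjusted p = 0.00204). Gata2 had 233, 343 and 208 CPM in CD62L-neg GMPs, against 60.1, 50.9 and 54.2 CPM in bulk GMPs (log2 fold change 2.25 ± 0.29, adjusted p = 1.44e-05). Replicate 2 of the CD62L-neg GMPs was the highest for both factors. Zfpm1 rose to 34.5, 42.2 and 30.4 CPM in CD62L-neg GMPs, against 19.5, 11.7 and 14.1 CPM in bulk GMPs (log2 fold change 1.24 ± 0.28, adjusted p = 0.00569), a call that was lost without bulk GMP replicate 2 (adjusted p = 0.0544). Ldb1, Lyl1 and Cbfa2t3 overlapped between the populations, with log2 fold changes between -0.07 and 0.00.

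The GMPs with most CD62L had little of this RNA. Against CD62L-neg GMPs, 4 of the 9 genes fell in CD62L-high GMPs (6.01% of all genes called lower) and none rose (4.49% of all genes called higher). Gata1 had 0 counts in all 3 CD62L-high GMP libraries, against 111, 263 and 120 counts in CD62L-neg GMPs, which is at least 175-fold lower when 3 counts are allowed over the 3 CD62L-high GMP libraries. Gata2 had 4.49, 7.19 and 1.54 CPM in CD62L-high GMPs, against 233, 343 and 208 CPM in CD62L-neg GMPs (log2 fold change -5.90 ± 0.36, adjusted p = 2.4e-11). This was the largest fitted change of Gata2 in any of the 9 comparisons of 2 populations. Zfpm1 had 4.25, 3.49 and 4.69 CPM in CD62L-high GMPs, against 34.5, 42.2 and 30.4 CPM in CD62L-neg GMPs (log2 fold change -3.10 ± 0.31, adjusted p = 7.44e-08). Tal1 had 16.2, 12 and 6.16 CPM in CD62L-high GMPs, against 31.5, 47.3 and 27.6 CPM in CD62L-neg GMPs (log2 fold change -1.64 ± 0.27, adjusted p = 7.68e-05). Ldb1, Nfe2 and Cbfa2t3 had overlapping libraries and log2 fold changes of -0.03 ± 0.15, 0.02 ± 0.16 and 0.09 ± 0.19, none near the threshold.

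CD62L-low GMPs, at the lower end of the CD62L-positive main body, were already far from CD62L-neg GMPs. 3 of the 9 genes fell in CD62L-low GMPs (2.48% of all genes called lower) and none rose (1.84% of all genes called higher): Gata1 (log2 fold change -6.92 ± 0.68), Gata2 (-4.49 ± 0.33) and Zfpm1 (-2.18 ± 0.29). Gata2 had 14.1, 10.9 and 9.91 CPM in CD62L-low GMPs, against 233, 343 and 208 CPM in CD62L-neg GMPs. Tal1 passed on p but not on fold (-0.94 ± 0.26, adjusted p = 0.0267). Between the low and the high end of the main body, CD62L-low against CD62L-high GMPs, Gata2 alone of the 9 genes was called and was higher in CD62L-low GMPs (0.885% of all genes called higher), while none was lower (0.331% of all genes called lower). The log2 fold change of Gata2 was 1.41 ± 0.33 with adjusted p = 0.0244, and this call was lost without CD62L-low GMP replicate 1 (adjusted p = 0.122), without CD62L-high GMP replicate 1 (0.0775) or 3 (0.0727), and when these 2 populations were fitted alone (0.214). That fit also called fewer genes in all, 41 higher and 30 lower, in place of 131 and 49, while DESeq2 called 213 and 83. Gata1 was at 4 counts over the 3 CD62L-low GMP libraries and 0 over the CD62L-high GMP libraries, too few to be told apart.

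Several marker lists of other cell types moved with the GATA factors in the GMP sort, but not all. The neutrophil granule list summed to 24100 to 26000 CPM in CD62L-neg GMPs, 19600 to 25600 CPM in CD62L-high GMPs and 20700 to 21700 CPM in bulk GMPs. None of its 4 tested genes was called between CD62L-neg GMPs and either of the others. Of all genes, 6.01% were called lower and 4.49% higher in CD62L-high against CD62L-neg GMPs. In CD62L-neg against bulk GMPs 1.89% were called higher and 2.18% lower, so none of 4 is near these shares. The 8 eosinophil markers summed to 1270 to 1940 CPM in CD62L-neg GMPs, against 3.51 to 10.6 CPM in CD62L-high GMPs and 131 to 146 CPM in bulk GMPs, and all 8 fell in CD62L-high against CD62L-neg GMPs. Among them, Prg2, the major basic protein of eosinophil granules, was at 845 to 1336 CPM and Epx, eosinophil peroxidase, at 298 to 422 CPM in CD62L-neg GMPs, against at most 3.88 and 0.670 CPM in CD62L-high GMPs. The 8 mast cell and basophil markers summed to 931 to 1470 CPM in CD62L-neg GMPs, against 40.4 to 51.7 CPM in CD62L-high GMPs, with Cpa3, mast cell carboxypeptidase, at 267 ± 71.3 CPM in CD62L-neg GMPs and 0 counts in CD62L-high GMPs. The mast cell tryptase gene Tpsab1 was at 0 in all 21 libraries. Erythroid markers were low throughout the GMPs, at 6.33 to 7.94 CPM in CD62L-neg GMPs and 0.134 to 0.408 CPM in CD62L-high GMPs, with Slc4a1 at 0 in both. The megakaryocyte list summed to 114 to 146 CPM in CD62L-neg GMPs, against 0.572 to 0.964 CPM in CD62L-high GMPs and 20.3 to 26.5 CPM in bulk GMPs, and 6 of its 8 genes fell in CD62L-high against CD62L-neg GMPs. The monocyte list went the other way, at 95.6 to 123 CPM in CD62L-neg GMPs, against 2710 to 2810 CPM in CD62L-high GMPs and 1650 to 1700 CPM in bulk GMPs, with 5 of 5 genes higher in CD62L-high than in CD62L-neg GMPs. The part of such cells in the Gata1, Gata2 and Zfpm1 results was not tested.

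**Figure D2:**
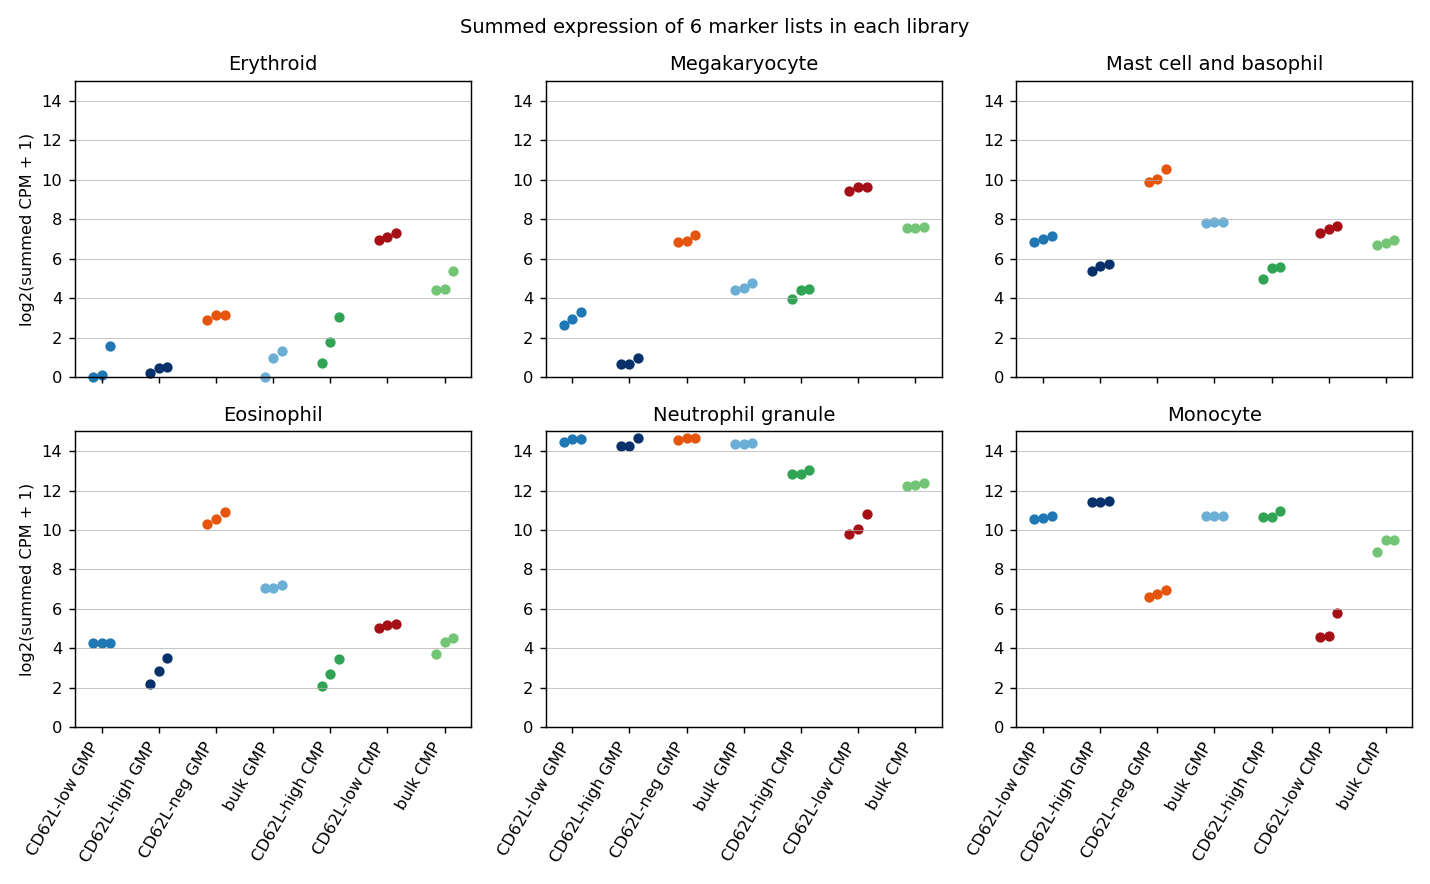
Summed expression of 6 marker lists, as log2(summed CPM + 1), in the 7 populations; the 3 points of a population are its libraries from lowest to highest. Eosinophil and mast cell or basophil sums were highest in CD62L-neg GMPs (1270 to 1940 and 931 to 1470 CPM), erythroid and megakaryocyte sums in CD62L-low CMPs (122 to 154 and 686 to 803 CPM).

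Both fractions with the least CD62L, CD62L-neg GMPs and CD62L-low CMPs, held much Gata2 RNA, but differed in the RNA levels of several partner genes. Against CD62L-low CMPs, 6 of the 9 genes fell in CD62L-neg GMPs (6.11% of all genes called lower) and none rose (6.49% of all genes called higher). Gata2 differed least among the called genes, with 233, 343 and 208 CPM in CD62L-neg GMPs, against 580, 610 and 612 CPM in CD62L-low CMPs (log2 fold change -1.20 ± 0.28, adjusted p = 0.003). Zfpm1 differed most, with 34.5, 42.2 and 30.4 CPM in CD62L-neg GMPs, against 544, 746 and 717 CPM in CD62L-low CMPs (log2 fold change -4.23 ± 0.30, adjusted p = 2.27e-10). Gata1 lay between them at -2.33 ± 0.41 (adjusted p = 0.000227). Tal1 (-1.71 ± 0.26), Cbfa2t3 (-1.68 ± 0.20) and Ldb1 (-1.25 ± 0.15) fell as well, while Lmo2 (-0.77 ± 0.16), Nfe2 (-0.58 ± 0.16) and Lyl1 (0.97 ± 0.20) passed on p but not on fold.

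Set against CD62L-high CMPs, CD62L-neg GMPs held more of both GATA factors, while FOG1 transcripts overlapped. 2 of the 9 genes rose in CD62L-neg GMPs (3.82% of all genes called higher) and none fell (4.62% of all genes called lower). Gata1 had 8.48, 20.7 and 9.62 CPM in CD62L-neg GMPs, against 0.237, 0.254 and 0.680 CPM in CD62L-high CMPs (log2 fold change 4.97 ± 0.55, adjusted p = 9.22e-07). Gata2 had 233, 343 and 208 CPM in CD62L-neg GMPs, against 27.8, 41.9 and 40.7 CPM in CD62L-high CMPs (log2 fold change 2.83 ± 0.30, adjusted p = 2.58e-07). Zfpm1 had 34.5, 42.2 and 30.4 CPM in CD62L-neg GMPs, against 28.1, 37.7 and 28.0 CPM in CD62L-high CMPs, which overlapped (log2 fold change 0.19 ± 0.27, adjusted p = 0.767). Tal1 overlapped too (0.16 ± 0.25, adjusted p = 0.794).

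Zfpm1 per Gata2 within each library put these values on 1 scale. In CPM per kb it was 0.228, 0.189 and 0.225 in CD62L-neg GMPs, against 1.45, 1.89 and 1.81 in CD62L-low CMPs and 1.56, 1.39 and 1.06 in CD62L-high CMPs. The ratio was below 0.5 in the 6 libraries of CD62L-neg and bulk GMPs and above 1 in all 9 CMP libraries. These positions against 1 rest on merged exon lengths of 3503 bases for Zfpm1 and 5398 bases for Gata2. As plain counts, Zfpm1 was below Gata2 in all 3 bulk CMP libraries, with 1016 against 1279 in replicate 2. The ratio did not overlap between CD62L-neg GMPs and either CMP fraction (exact permutation p = 0.1 each, two-sided, the smallest possible). Between CD62L-high and CD62L-low CMPs it overlapped (exact permutation p = 0.2), although both genes differed by more than 16-fold. In CD62L-high GMPs the ratio was 1.46, 0.746 and 4.69 and in CD62L-low GMPs 0.653, 0.567 and 2.08, spread widely on 23 to 210 counts of either gene in a library. In all, 15 such ratio comparisons were made over 3 pairs of genes, and none can pass 0.05 after adjustment.

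**Figure D3:**
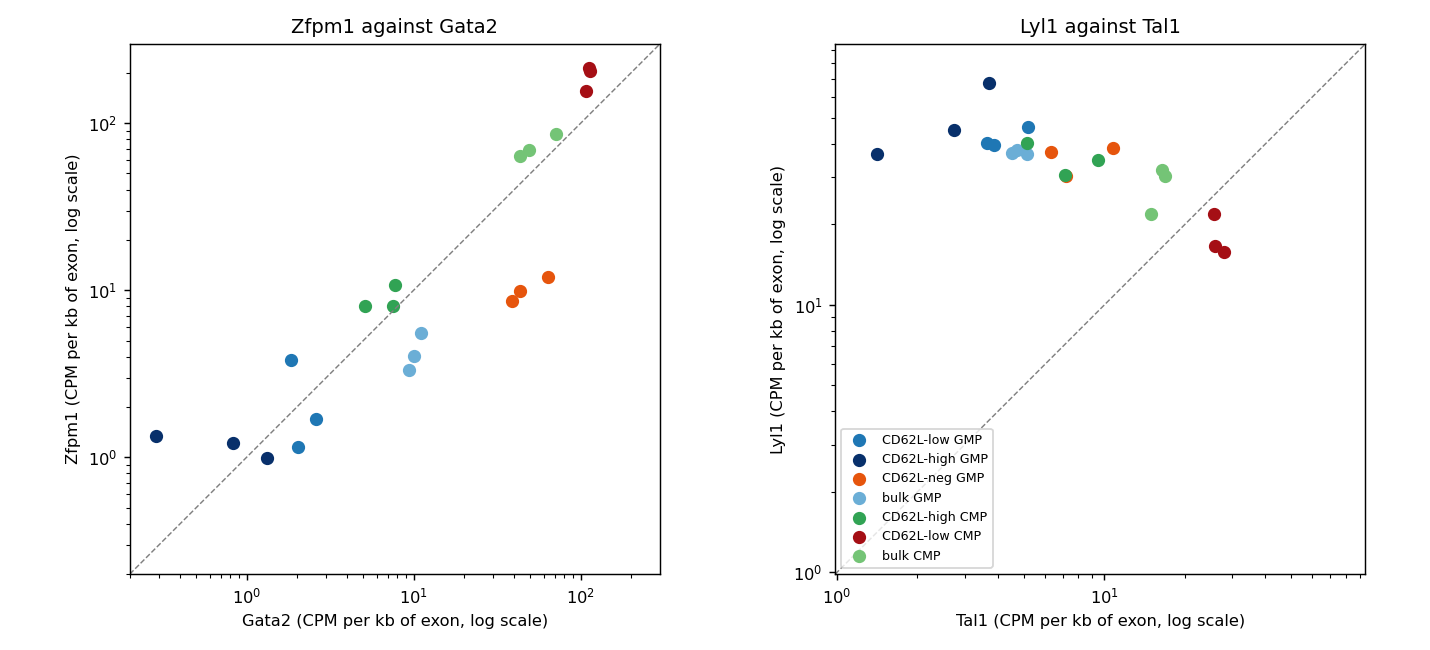
Zfpm1 against Gata2 (left) and Lyl1 against Tal1 (right) in each of the 21 libraries, in CPM per kb of exon on log axes. The dashed line marks equal CPM per kb, and the side of it on which a library lies depends on the exon lengths used. CD62L-neg GMPs lie below the line on the left, at 0.189 to 0.228 Zfpm1 per Gata2, where all CMP libraries lie above it, and only CD62L-low CMPs lie below the line on the right.

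Marker values beside this contrast were as follows. In CD62L-neg GMPs, against CD62L-low CMPs, the eosinophil list summed to 1270 to 1940 CPM, against 31.4 to 37.0 CPM, and the mast cell and basophil list to 931 to 1470 CPM, against 154 to 199 CPM. The megakaryocyte list ran the other way, at 114 to 146 CPM in CD62L-neg GMPs and 686 to 803 CPM in CD62L-low CMPs, as did the erythroid list, at 6.33 to 7.94 CPM in CD62L-neg GMPs and 122 to 154 CPM in CD62L-low CMPs. Epx and Prg3 were at 0 counts in all 3 CD62L-low CMP libraries. The neutrophil granule list summed to 24100 to 26000 CPM in CD62L-neg GMPs, against 878 to 1780 CPM in CD62L-low CMPs. All 4 of its tested genes were called higher, where 6.49% of all genes were called higher and 6.11% lower. Of 5 monocyte markers 4 were higher in CD62L-neg GMPs (95.6 to 123 CPM, against 22.7 to 54.6 CPM). Of 5 stem cell markers 4 were lower (28.7 to 41.0 CPM, against 242 to 246 CPM). Of the populations compared here, CD62L-neg GMPs, with little Zfpm1 beside Gata2, thus had the higher eosinophil, mast cell and basophil, neutrophil granule and monocyte sums. CD62L-low CMPs, with much Zfpm1 beside Gata2, had the higher megakaryocyte, erythroid and stem cell sums. Neutrophil granule sums also reached 19600 to 25600 CPM in CD62L-high GMPs, where Gata2 was at 1.54 to 7.19 CPM. The part of mixed cell types in these levels was not tested.

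Between the fractions with most CD62L, 4 of the 9 genes fell in CD62L-high GMPs against CD62L-high CMPs (5.11% of all genes called lower) and none rose (2.53% of all genes called higher). Gata2 was at 4.49, 7.19 and 1.54 CPM in CD62L-high GMPs, against 27.8, 41.9 and 40.7 CPM in CD62L-high CMPs (log2 fold change -3.07 ± 0.33, adjusted p = 5.81e-07). Zfpm1 (-2.91 ± 0.31, adjusted p = 4.94e-07) and Tal1 (-1.48 ± 0.27, adjusted p = 0.000387) fell alongside it. Gata1, with 0 counts in CD62L-high GMPs and 18 counts over the CD62L-high CMP libraries, was at least 5.47-fold lower, and its call (adjusted p = 0.026) was lost when CD62L-high CMP replicate 3 or any single CD62L-high GMP library was left out (adjusted p = 0.0688 to 0.122). Lmo2 passed on p but was 1.96-fold lower, just inside the limit (-0.97 ± 0.16, adjusted p = 0.000137).

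The CD62L sort was then compared between the cell types, as the difference between the log2 fold change of CD62L-high against CD62L-low CMPs and that of CD62L-high against CD62L-neg GMPs. 5 of the 9 genes passed an adjusted p of 0.05 in this test of the difference, against 7.35% of all genes. Without bulk CMP replicate 2, a library outside this contrast, the calls over all genes numbered 1742 in place of 1088. For Gata2 the difference was 1.87 ± 0.42 (adjusted p = 0.00601), so its fall with CD62L was smaller in CMPs (-4.03) than in GMPs (-5.90). For Zfpm1 the difference was -1.31 ± 0.40 (adjusted p = 0.0486), with the larger fall in CMPs (-4.42, against -3.10 in GMPs). The GATA factor and its partner thus differed between the cell types in opposite directions, but the call of Zfpm1 was marginal and was lost when any 1 of 14 libraries was left out (adjusted p = 0.0505 to 0.122). Nfe2 (-1.11 ± 0.23, adjusted p = 0.00244), Cbfa2t3 (-1.15 ± 0.27, adjusted p = 0.00862) and Ldb1 (-0.82 ± 0.21, adjusted p = 0.0152) had log2 fold changes of -1.09, -1.06 and -0.85 in CMPs and of 0.02, 0.09 and -0.03 in GMPs. The call of Ldb1 was lost without CD62L-high CMP replicate 1 (adjusted p = 0.0508) or CD62L-high GMP replicate 2 (0.0516). Tal1 did not pass (-0.24 ± 0.36, adjusted p = 0.804), with log2 fold changes of -1.87 in CMPs and -1.64 in GMPs.

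**Figure D4:**
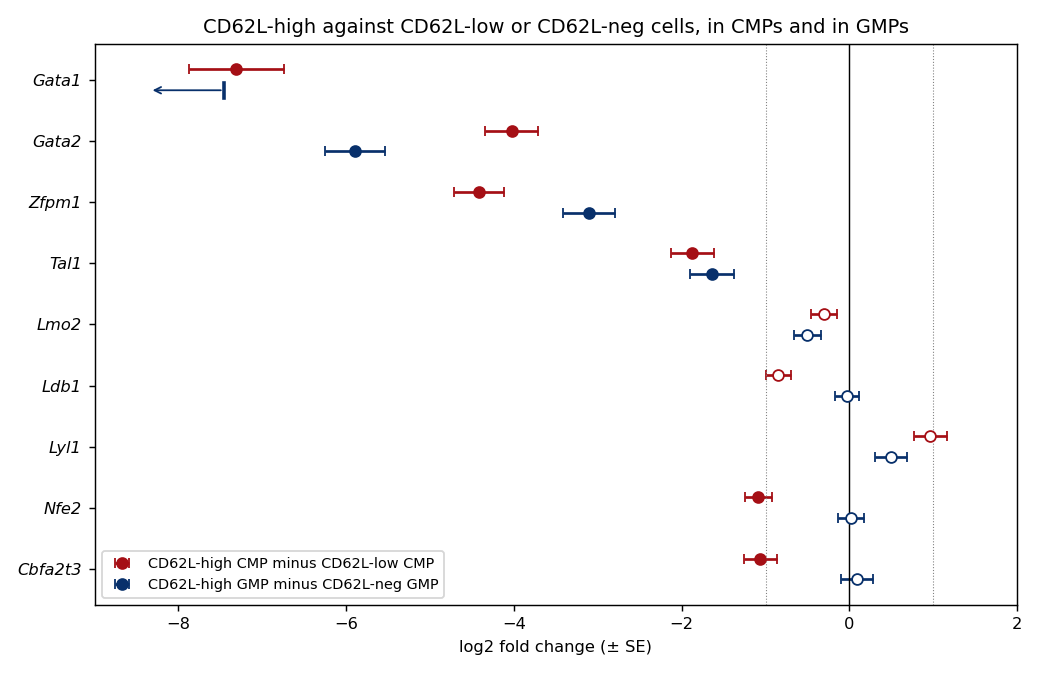
Log2 fold change (horizontal axis, with SE) of the 9 genes for CD62L-high against CD62L-low CMPs and for CD62L-high against CD62L-neg GMPs. Filled points were called, dotted lines mark 2-fold, and the arrow gives the bound for Gata1, which had 0 counts in CD62L-high GMPs; Gata2 lies at -4.03 in CMPs and -5.90 in GMPs, Zfpm1 at -4.42 and -3.10.

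Of 16 other family members and paralogs of the 9 genes, 10 did not pass the filter on low counts. Of all 47643 genes 14801 passed it, so most genes failed it as well. Among the 10 were Gata4, Gata5, Gata6, Tal2 and Ldb2. Zfpm2 and Runx1t1, the closest relatives of Zfpm1 and Cbfa2t3, were also among them and were read with 2 and 13 counts in all 21 libraries. Gata3, best known from T cells, was at 4.92 ± 1.34 CPM in CD62L-low CMPs and at 0 counts in bulk, CD62L-low and CD62L-high GMPs. Other LIM-only genes moved more. Lmo1 rose to 12.6 ± 1.07 CPM in CD62L-high CMPs, against 0.396 ± 0.366 CPM in CD62L-low CMPs (log2 fold change 4.99 ± 0.40, adjusted p = 2.36e-09), while Lmo4 fell (-1.24 ± 0.20, adjusted p = 5.03e-05). Within GMPs Lmo4 was highest in the CD62L-neg fraction, at 158 ± 48.6 CPM in CD62L-neg GMPs, against 55.5 ± 3.67 CPM in bulk GMPs (log2 fold change 1.51 ± 0.20, adjusted p = 1.39e-05). Cbfa2t2, another ETO family corepressor, was called in no comparison, at 27.8 to 54.1 CPM in the population means.

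The other partners of the complex also differed among themselves. Of 21 other complex subunits and partners 3 fell and none rose in CD62L-high against CD62L-low CMPs, with a median log2 fold change of -0.105, where 4.84% of all genes were called lower and 5.62% higher. These were Klf1, the erythroid Krueppel-like factor (-7.70 ± 0.86, adjusted p = 6.79e-07), Gfi1b, the growth factor independence repressor of erythroid cells and megakaryocytes (-4.14 ± 0.53, adjusted p = 2.86e-06), and the small MAF gene Maff (-1.87 ± 0.60, adjusted p = 0.0307). Among the general partners Tcf3, which encodes the E proteins that pair with TAL1, was at 140 ± 17.5 CPM in CD62L-high CMPs, against 141 ± 8.36 CPM in CD62L-low CMPs, and Runx1 (-0.07 ± 0.19) and Mafg, the small MAF partner of NFE2 (0.05 ± 0.20), did not pass either. Fli1, an ETS factor of megakaryocytes, passed on p but not on fold (-0.80 ± 0.13, adjusted p = 4.69e-05). Of these 21 partners 6 were lower and none higher in bulk GMPs against bulk CMPs (7.3% and 4.19% of all genes), and 2, Klf1 and Gfi1b, were higher and none lower in CD62L-neg against bulk GMPs (1.89% and 2.18%). Within the GMPs 2 were lower and none higher in the CD62L-high against the CD62L-neg fraction (6.01% and 4.49%), 3 were lower and none higher in the CD62L-low against the CD62L-neg fraction (2.48% and 1.84%), and none was called between CD62L-low and CD62L-high GMPs (0.331% lower and 0.885% higher). CD62L-neg GMPs had 3 lower and none higher against CD62L-low CMPs (6.11% and 6.49%). Against CD62L-high CMPs they had 2 higher, Klf1 and Gfi1b, and 1 lower (3.82% and 4.62%), the E protein gene Tcf4 at 34.9 ± 4.49 CPM in CD62L-neg GMPs, against 107 ± 6.01 CPM in CD62L-high CMPs (-1.61 ± 0.15, adjusted p = 2.69e-08). CD62L-high GMPs had 4 lower and none higher against CD62L-high CMPs (5.11% and 2.53%). Of 21 subunits of the NuRD complex, which FOG1 recruits, and of other corepressors, none was called in 7 of the 9 comparisons of 2 populations. Mta3 alone was called in the other two, lower in CD62L-neg GMPs than in CD62L-low CMPs (-1.14 ± 0.20) and lower in CD62L-high GMPs than in CD62L-high CMPs (-1.14 ± 0.20).

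Most genes known to be activated by GATA1 fell along with the factors in CMPs. Of 26 such genes 23 were tested, and in CD62L-high against CD62L-low CMPs 17 fell, none rose and 6 were not called, with a median log2 fold change of -4.36, where 4.84% of all genes were called lower and 5.62% higher. 15 of the 26 are also on the erythroid or megakaryocyte marker lists. Epor, the erythropoietin receptor, was at 0 counts in CD62L-high CMPs, against 269 counts over the 3 CD62L-low CMP libraries, at least 170-fold lower with 3 counts allowed over the 3 libraries. Pf4, platelet factor 4, averaged 0.314 ± 0.274 CPM in CD62L-high CMPs, against 109 ± 16.6 CPM in CD62L-low CMPs (-8.31 ± 0.56, adjusted p = 1.19e-10). The late erythroid genes Alas2, Slc4a1 and Epb42 did not pass the filter. In CD62L-neg GMPs, against bulk GMPs, 10 of the 23 rose and none fell, where 1.89% of all genes were called higher and 2.18% lower, among them Cpa3 (2.73 ± 0.28, adjusted p = 1.25e-06), Itga2b, the platelet integrin subunit CD41 (2.37 ± 0.25, adjusted p = 6.87e-07), Gfi1b (2.75 ± 0.54, adjusted p = 0.0018) and Tfr2, a transferrin receptor (1.60 ± 0.33, adjusted p = 0.00266). Against CD62L-low CMPs, where 6.11% of all genes were called lower and 6.49% higher, CD62L-neg GMPs had 17 of the 23 lower and only Cpa3 higher, at 267 ± 71.3 CPM, against 56.3 ± 22.8 CPM (2.25 ± 0.28, adjusted p = 2.68e-06).

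Transcription factors that the study names for neutrophil and monocyte differentiation mostly ran the other way in CMPs. Of 7 such factors 6 rose and none fell in CD62L-high against CD62L-low CMPs, with a median log2 fold change of 1.71, where 5.62% of all genes were called higher and 4.84% lower. Spi1, which encodes PU.1, averaged 122 ± 5.32 CPM in CD62L-high CMPs, against 35.3 ± 15.7 CPM in CD62L-low CMPs (1.79 ± 0.20, adjusted p = 4.87e-07), and Cebpa averaged 102 ± 7.0 CPM in CD62L-high CMPs, against 40.8 ± 7.42 CPM in CD62L-low CMPs (1.33 ± 0.18, adjusted p = 5.68e-06). In the sort of GMPs neither of them passed the test where Gata2 rose. Spi1 was at 132 ± 15.4 CPM in CD62L-neg GMPs and 151 ± 16.3 CPM in bulk GMPs (adjusted p = 0.715), and Cebpa at 169 ± 21.6 CPM in CD62L-neg GMPs and 158 ± 13.9 CPM in bulk GMPs (adjusted p = 0.875), while Gata2 rose 4.75-fold. CD62L-neg GMPs thus had much Gata2 beside much Cebpa RNA, whereas CD62L-low CMPs had the highest mean of Gata2 and the lowest of Cebpa among the 7 populations. Bulk CMPs had both as well, with Gata2 at 293 ± 78.9 CPM and Cebpa at 131.5 ± 41.0 CPM. In CD62L-neg against bulk GMPs 2 of the 7 rose and 2 fell (1.89% and 2.18% of all genes). Gfi1, a repressor of granulocyte precursors, rose to 126 ± 8.88 CPM in CD62L-neg GMPs, against 49.6 ± 3.34 CPM in bulk GMPs (1.34 ± 0.22, adjusted p = 0.000272), and Cebpe, a factor of granule genes, to 54.6 ± 5.52 CPM, against 16.7 ± 2.60 CPM in bulk GMPs (1.71 ± 0.43, adjusted p = 0.015). Klf4, a factor of monocytes, fell to 10.4 ± 3.73 CPM in CD62L-neg GMPs, against 140 ± 5.98 CPM in bulk GMPs (-3.75 ± 0.25, adjusted p = 4.41e-10). Irf8, a monocyte and dendritic cell factor, fell in CD62L-neg GMPs to 19.0 ± 5.12 CPM, against 460 ± 16.4 CPM in bulk GMPs (-4.60 ± 0.33, adjusted p = 2.01e-09).

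The genes most like each of the 9 over the 21 libraries were sought by Pearson correlation of log2(CPM + 1) among 8924 genes. Gata1 was most like Cd55 (0.984), Scin (0.975) and Tgfbr3 (0.97). Gata2 was most like the vesicular monoamine transporter gene Slc18a2 (0.979), Itga2b (0.978) and Mdga1 (0.973). Zfpm1 and Tal1 shared H2-Q6 (0.984 and 0.967) among their 3 nearest genes. Lmo2 was nearest to Dst, Map7 and Erg (0.943 to 0.935), Ldb1 to Mrvi1, Arhgef2 and Med12l (0.952 to 0.946), and Cbfa2t3 to genes that included Foxo3 (0.969) and Crtc1 (0.95). Lyl1 was nearest to the lysosomal genes Grn (0.953) and Ctsb (0.936), with Rbms1 between them, and Nfe2 to Ubash3b (0.931), Itga6 (0.881) and Fermt3 (0.853). Each value is a description over 21 libraries that share 7 populations.

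3 of the 9 genes overlap a neighbour on the opposite strand in their exons, and the study does not say whether the counting used strand. Ldb1 shares 177 exonic bases with Pprc1, Cbfa2t3 295 with the antisense gene Gm10612 and Lyl1 4 with Nfix. Pprc1 had 25827 counts over all libraries beside 22161 of Ldb1, so the level of Ldb1 carries that uncertainty, whereas Gm10612 had 275 counts beside 25635 of Cbfa2t3.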

How the data were processed

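Bone marrow progenitors of 7 sorted populations were profiled by RNA sequencing in 21 libraries. The values deposited by the authors are raw counts for 47643 genes, made with bcl2fastq, Trim Galore, HISAT2 on the mm10 build and HTSeq, without stated versions. The sources name different library kits (SMART-Seq v.4 in the study, a stranded SMARTer kit in the labels), and whether counting used strand is not stated. The study tested with DESeq2 and left out 1 bulk CMP library without saying which, so all 3 were kept here. Library totals were 6145834 to 15263573 counts, so a count of 0 allows up to 3 counts.

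Counts of all 21 libraries were fitted together with the edgeR quasi-likelihood test (edgeR 4.0.16, R 4.3.3), after filterByExpr and TMM scaling, with 1 coefficient per population and Benjamini-Hochberg adjustment over 14801 genes. Calls needed more than a 2-fold change with adjusted p below 0.05, except for differences between CD62L effects, which needed that p alone. Correlations used log2(CPM + 1) over genes with a mean of at least 10 CPM in any population. Ratios of 2 genes were compared by exact permutation tests. Replicate numbers were checked for pairing and did not pair the libraries, and libraries of 1 population were not duplicates by a chi-square test of their counts. By that measure bulk CMP replicate 2 stood far from its replicates, at 179.46 and 185.93 per degree of freedom. CD62L-high GMP replicate 1 did too, at 86.93 and 99.81, against 6.07 to 28.34 for all other pairs within a population. Scripts were tested on simulated data. Alternatives were DESeq2 (1.42.0), its size factors, no filter on low counts, only the populations compared, leaving out the 3 gene models, a replicate block, adjusted p alone and leaving out each library. All 9 genes are described. Named from each list were a set of genes named in advance (Klf1, Gfi1b, Runx1, Fli1, Spi1, Cebpa, Tcf3, Gata3, Zfpm2, Runx1t1, Cbfa2t2, Lmo4 and Mafg) and, per comparison, up to 4 genes a direction with the largest change among called genes whose libraries did not overlap and whose mean reached 10 CPM in the higher population. The 9 genes and the lists were chosen with earlier results of these data known. Gene names and coordinates follow the mouse annotation on GRCm38 (99.12% of identifiers matched). Promoters are from RefSeq. Results on some genes are not reported here.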

Additional observations from a re-analysis of the deposited data

Results flagged for a closer look

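For 5 of the 9 genes the effect of the CD62L sort differed between progenitor types. The difference, the log2 fold change of CD62L-high against CD62L-low CMPs minus that of CD62L-high against CD62L-neg GMPs, passed an adjusted p of 0.05 in the edgeR fit over all 21 libraries, as did 7.35% of all genes. It was 1.87 for Gata2, which fell less in CMPs than in GMPs. It was -1.31 for Zfpm1, which fell more in CMPs. It was -1.15 for Cbfa2t3, -1.11 for Nfe2 and -0.82 for Ldb1, which were lower in CD62L-high CMPs and lay between -0.03 and 0.09 in GMPs. The Zfpm1 call (adjusted p = 0.0486) was lost when any 1 of 14 libraries was left out and with the replicate number as a block (0.0691), and the Ldb1 call was lost without CD62L-high CMP replicate 1 (0.0508) or CD62L-high GMP replicate 2 (0.0516), so that 3 to 5 calls were left. The lower fractions are not the same kind of cut in both types, since CD62L-neg GMPs are a thin tail of the GMP gate, and the CMP fractions also differed in depth. The part of either in the differences was not tested.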

How the results depend on the processing

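No log2 fold change of the 9 genes that was called, in the main fit or in an alternative, changed sign. Changes of sign among values called in neither were not counted. In 2392 alternative values the side of the threshold was kept, while 26 lost a call and 10 gained one. With the adjusted p alone, genes called higher numbered 1 in CD62L-high against CD62L-low CMPs, 1 in CD62L-neg GMPs against CD62L-low CMPs and 1 in CD62L-high GMPs against CD62L-high CMPs, in place of 0, and genes called lower in CD62L-neg GMPs against CD62L-high CMPs numbered 2 in place of 0. With only the populations compared in the fit, 0 genes in place of 1 were called higher in CD62L-low against CD62L-high GMPs, and calls over all genes there were 71 in place of 180, against 296 with DESeq2 and 324 with no filter. The 71 split into 41 higher and 30 lower, against 131 and 49.

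Leaving out each library in turn gave 0 to 1 genes higher in CD62L-high against CD62L-low CMPs, where Lyl1 was gained without CD62L-low CMP replicate 1 or CD62L-high CMP replicate 2. It gave 0 to 1 higher in CD62L-neg GMPs against CD62L-low CMPs, 0 to 2 higher in CD62L-low against CD62L-high GMPs, and 3 to 5 differences between the CD62L effects. Without bulk CMP replicate 2, calls of that difference over all genes were 1742 in place of 1088. Replicate numbers did not pair the libraries (correlations of same-numbered deviations -0.141 to 0.083). With the replicate number as a block, the Zfpm1 difference between CD62L effects was -1.30 (adjusted p = 0.0691) and no other call on the 9 genes changed. Leaving out the 3 gene models moved 55 of the mean CPM values by more than 1 SD, as all levels then refer to smaller totals. In CD62L-high GMPs Gata1 had 0 counts and Gata2 175 counts over 3 libraries, and 0 counts of Gata1 allow up to 3.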
